A study of Rattus norvegicus with 18 samples.

Results

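DNA replication and S-phase genes were followed in A2B5+ and O4+ cells sorted from postnatal rat brain. The 40 genes were taken from a list of symbols, and a gene entered the comparison through probe sets annotated with its symbol alone and a ratio of at least 1 on at least 4 of 9 arrays. By this rule 37 of the 40 genes were tested, out of 11982 genes in all, 29 from array A and 8 from array B. Cdc6, Gins2 and Msh6 had no probe set with their symbol alone and were not analysed here. All 37 genes with such a probe set passed the filter, through 47 of their 49 probe sets. Each of these 47 had a ratio of at least 1 on 5 of the 9 arrays. Where a probe set did not overlap between populations, as for Cdt1 and Dut, those were the 5 A2B5+ arrays alone.

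The animals were male rats at postnatal day 7, and the brains of 1 litter of 10 pups made up each replicate. Cells positive for A2B5 alone or for O4 alone were collected by flow cytometry, with RNA extracted from them directly. The A2B5+ population had 5 replicates and the O4+ population 4, each read on both array types (array A, array B), which makes 18 samples. A2B5 binds gangliosides on glial progenitors and on some neurons, and O4 binds sulfatide and related lipids of late progenitors and oligodendrocytes. The labels name no strain, genotype or treatment, and the source label of the array B samples reads only whole brain, so groups follow the antigen in the titles. Each value is a linear ratio whose denominator is not stated. Most probe sets have a median of exactly 1, so that arrays can be compared for a gene, but levels of different genes cannot. A difference is the mean log2 ratio of O4+ arrays less that of A2B5+ arrays (n = 4 and 5), followed after ± by limma's standard error, and it was called at an adjusted p under 0.05 over all genes.

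Before a cell copies its DNA, the origin recognition complex, Cdc6 and Cdt1 load the ring-shaped MCM2-7 helicase onto origins, and in S phase Cdc45 and GINS switch it on. Polymerase alpha-primase then starts each strand, the clamp PCNA and its loader hold the main polymerases in place, and Fen1 and Lig1 join the lagging strand. Many of these genes are transcribed by E2F factors once G1 cyclins and their kinases have inactivated Rb proteins. Oligodendrocyte progenitors divide in the postnatal brain and leave the cycle as they differentiate.

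Transcripts of the replication machinery were lower in O4+ cells. Of the 37 tested genes, 28 were lower and 0 higher, where 17.8% of all tested genes were lower and 28.8% higher. With each array centred on its median, 30 were lower and 0 higher, where the shares of all genes were 20.4% and 18.7%. The other 9 did not pass the test, and 36 of the 37 differences were negative. The median difference was -0.95, against 0.14 for all genes. Differences ran from -2.51 ± 0.26 for Cdt1, a 5.69-fold lower ratio, to 0.58 ± 0.26 for Slbp. Every O4+ array lay below every A2B5+ array for 20 of the 37 genes, where 13.5% of all genes showed this. Such genes reached the filter's ratio of 1 mainly on A2B5+ arrays. With no filter on the ratio, 28 of the 37 were lower, 0 higher and 20 without overlap. Of all 13810 genes then tested, 2060 were lower and 4914 higher. In bulk RNA of sorted cells, fewer cycling cells and less transcript per cell cannot be told apart.

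**Figure D1:**
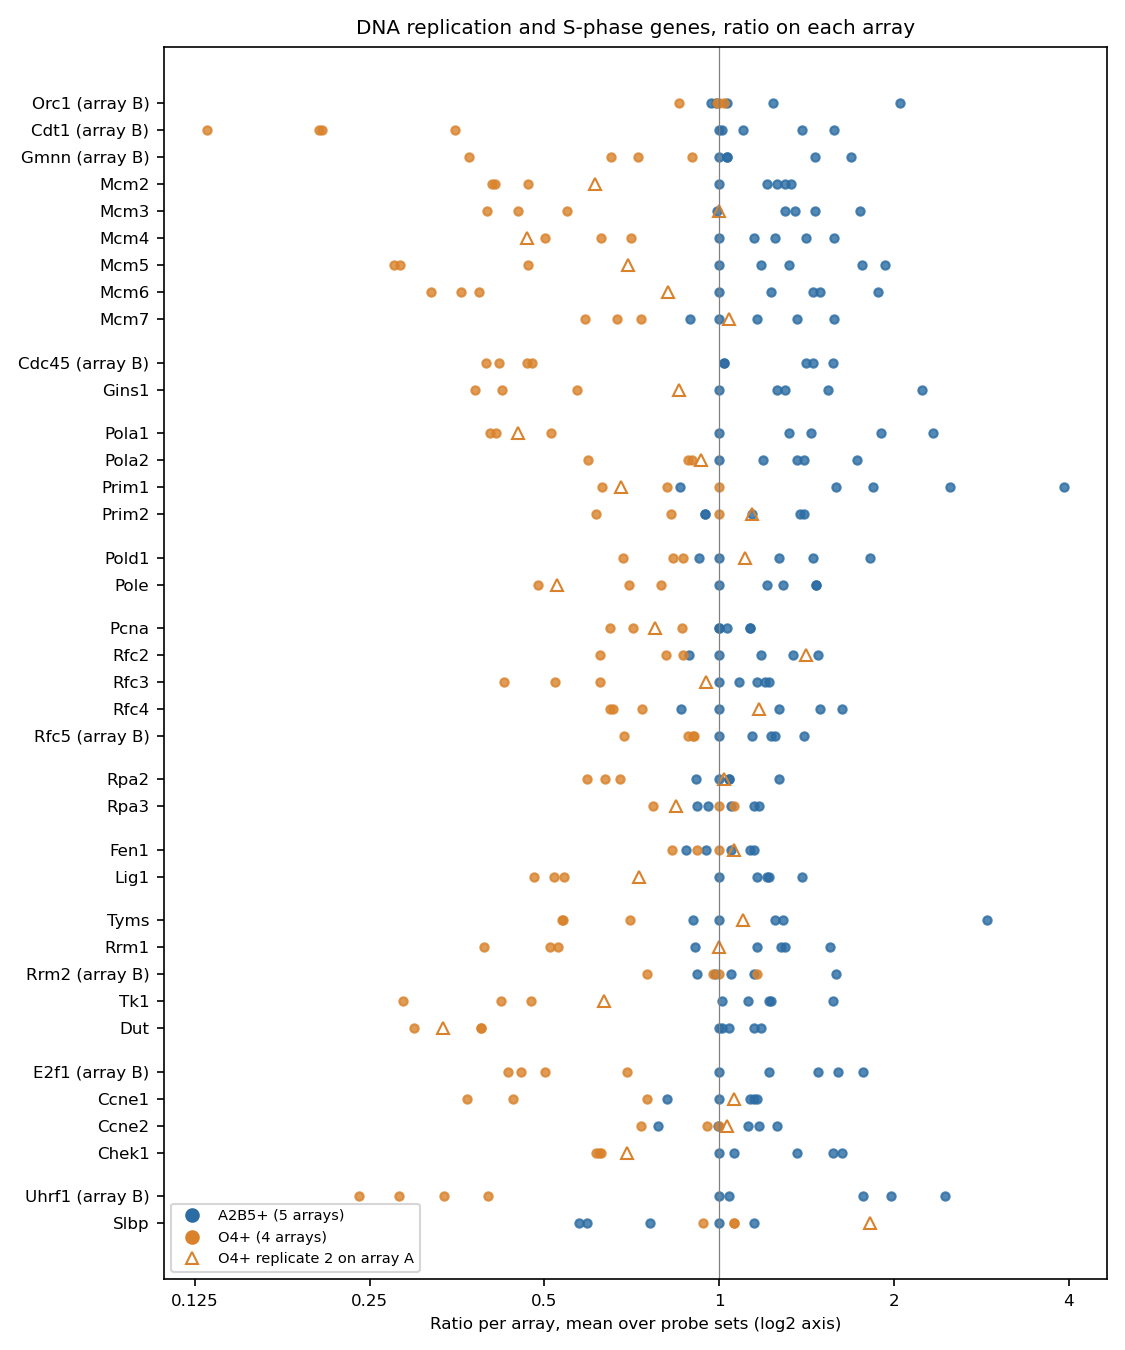
Ratio of each tested gene on each array, on a log2 axis, grouped by role, with genes measured on array B marked. Blue points are the 5 A2B5+ arrays, orange points the 4 O4+ arrays, and open triangles O4+ replicate 2 on array A. Blue and orange are apart for 20 genes, and the triangles often lie to the right of the other orange points.

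**Figure D2:**
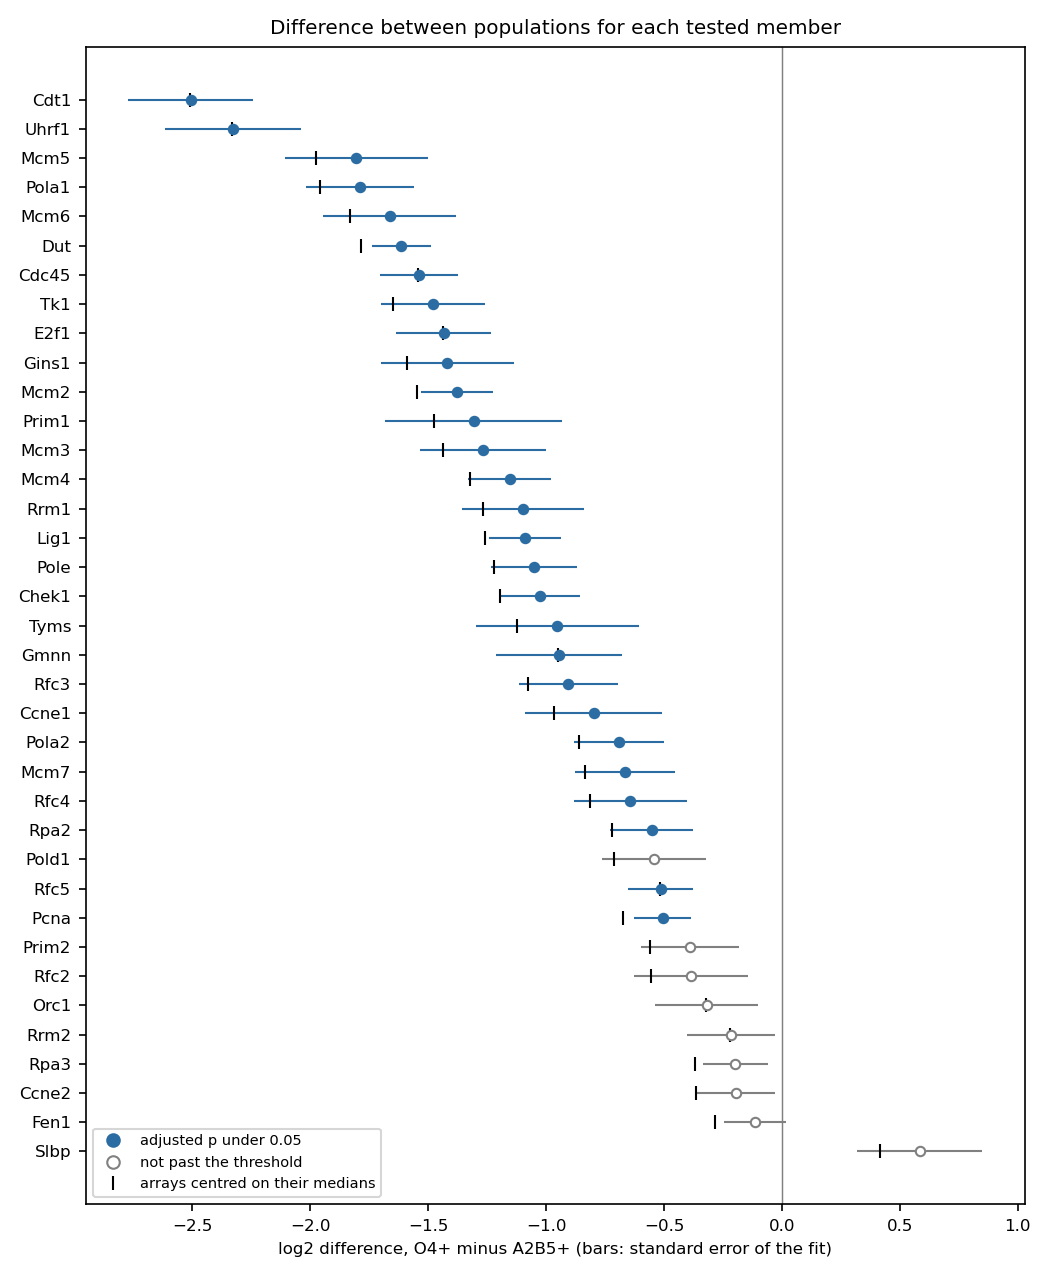
Log2 difference between O4+ and A2B5+ arrays for the 37 tested genes in order of size; bars are standard errors. Filled points are the 28 genes past the threshold, open points the other 9, and black ticks the difference with each array centred on its median.

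The libraries did not all stand alike. On array A, O4+ replicate 2 had the highest O4+ ratio for 22 of 29 genes (19 of 29 with arrays centred), and its median over these genes was -0.10 against -0.68, -0.70 and -0.77 in the other O4+ arrays. Among O4+ arrays it also had the highest mean of the microglia marker list, -0.07 on centred arrays. Its endothelial mean of -0.86 was highest by little, with replicate 4 of array A at -0.89. On 100 probe sets shared by both array types, O4+ replicate 2 of array A agreed best with O4+ replicate 4 of array B (r = 0.94, against -0.80 with replicate 2 there), so the O4+ numbers do not match across the types. That array B column had an endothelial mean of -1.38, where O4+ means of array B ran from -1.40 to -0.81. Leaving out both columns gave 30 genes lower and 0 higher, and 29 genes without overlap in place of 20. Among A2B5+ cells, replicate 1 had the lowest ratio for 22 of the 29 genes of array A and for 5 of the 8 of array B. On centred array A, A2B5+ replicate 1 had the highest A2B5+ mean of the progenitor marker list, 0.89, and the lowest of the replication genes, 0.06. A2B5+ replicate 5 had the lowest progenitor mean, -1, with a replication mean of 0.43. How the replication genes relate to progenitor content was not tested.

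**Figure D3:**
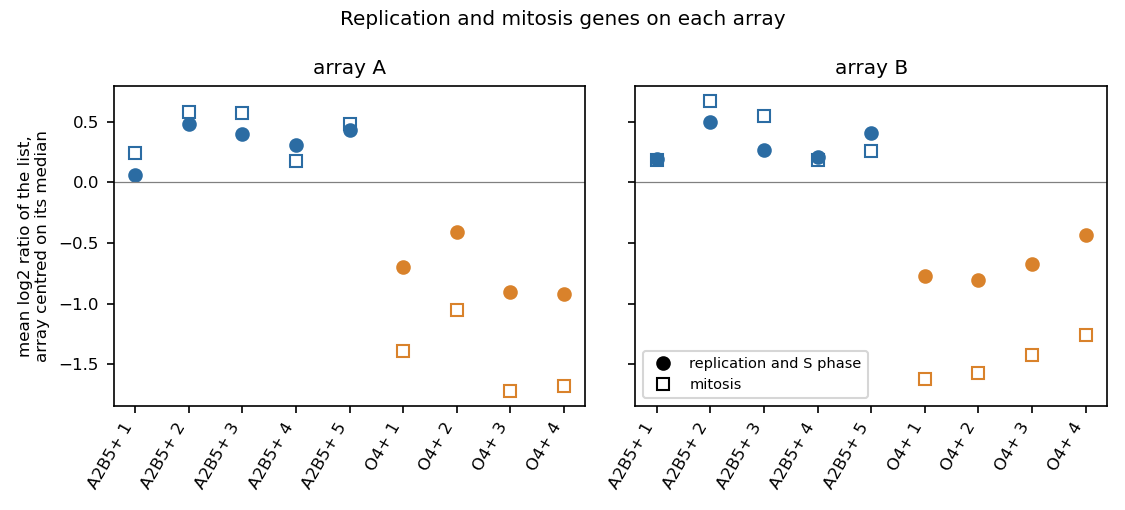
Mean log2 ratio, for each array, of the tested replication and S-phase genes of each array type (29 on array A, 13 with a tested probe set on array B) and of the mitosis genes (28 and 23), on arrays centred on their medians. On array A the O4+ means of the replication genes lie between -0.92 and -0.41 and the A2B5+ means between 0.06 and 0.48.

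Origin licensing genes had some of the widest gaps. Cdt1, which brings the helicase to origins, had ratios of 1, 1.58, 1.39, 1.10 and 1.01 in A2B5+ replicates 1 to 5 and of 0.131, 0.204, 0.207 and 0.350 in O4+ replicates 1 to 4. All 4 O4+ values lay far below the lowest A2B5+ value, and the difference of -2.51 ± 0.26 had an adjusted p of 7.0e-05. Geminin (Gmnn), the inhibitor that binds Cdt1 after S phase begins, had ratios of 1.03, 1.46, 1, 1.03 and 1.69 against 0.370, 0.652, 0.726 and 0.896. Its populations did not overlap either, and the difference was -0.95 ± 0.27 (adjusted p = 0.0165). Another Gmnn probe set stayed between 0.414 and 0.454 on all arrays and was not tested. With no filter on the ratio, which averages both, the difference of Gmnn was -0.44 (adjusted p = 0.033). Orc1, the origin recognition subunit whose level follows the cycle, had ratios from 0.967 to 2.05 in A2B5+ cells and from 0.851 to 1.02 in O4+ cells. These ranges overlapped, and the difference of -0.32 ± 0.22 did not pass the test (adjusted p = 0.25).

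All 6 subunits of the MCM2-7 helicase were lower in O4+ cells. Mcm5 had ratios of 1, 1.76, 1.18, 1.32 and 1.93 in A2B5+ cells and of 0.469, 0.696, 0.275 and 0.282 in O4+ cells, a difference of -1.80 ± 0.30 (adjusted p = 0.0011). Mcm6 had ratios of 1, 1.88, 1.45, 1.49 and 1.23 against 0.386, 0.815, 0.359 and 0.319, with a difference of -1.66 ± 0.28. For Mcm2 the values were 1, 1.33, 1.21, 1.30 and 1.26 against 0.468, 0.610, 0.411 and 0.406. Its populations were the most compact of the 6, with SDs of 0.17 and 0.27 on the log2 scale, and the difference was -1.38 ± 0.15 (adjusted p = 9.5e-05). Mcm4 fell by 1.15 ± 0.17, also without overlap. Mcm3 fell by 1.27 ± 0.27, with O4+ ratios of 0.546, 0.398 and 0.451 and a value of 1 in replicate 2, which reached into the A2B5+ range of 0.991 to 1.75. Mcm7 had the smallest difference of the helicase, -0.67 ± 0.21 (adjusted p = 0.029), with overlap through the same O4+ array at 1.04. Leaving out any of 6 single replicates, A2B5+ 2, 3 or 4 or O4+ 1, 3 or 4, ended the call of Mcm7 (adjusted p up to 0.078).

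The factors that activate the helicase were lower as well. Cdc45, which travels with the helicase at the fork, had 3 tested probe sets on array B with differences of -1.28 ± 0.15, -1.55 ± 0.22 and -1.78 ± 0.18. Their mean ratios were 1.02, 1.02, 1.57, 1.45 and 1.41 in A2B5+ cells and 0.397, 0.418, 0.475 and 0.466 in O4+ cells, a gene difference of -1.54 ± 0.16 (adjusted p = 7.4e-05). The Cdc45 probe set with a difference of -1.78 is of a type whose probes can also match other sequences. One further Cdc45 probe set stayed between 0.508 and 0.642 on all arrays and was not tested. Gins1, a subunit of the GINS ring, had ratios of 1, 1.54, 1.26, 1.30 and 2.24 against 0.568, 0.854, 0.379 and 0.423. The groups were apart, with a difference of -1.42 ± 0.28 (adjusted p = 0.0029).

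Promoters of these genes are shown because the E2F route to S phase leaves a recognisable sequence. The genes were not chosen by these letters, but many are transcribed by E2F factors. The shares below are therefore no independent support for the array result. RefSeq promoter windows (GRCr8, 250 bases before to 50 after a start) were found for 31 of the 37 tested genes. They were searched on both strands for the E2F sites TTTCCCGC, TTTGGCGC, TTTGCCGC and TTTCGCGC. A site was found for 17 of the 31 genes, or 54.8%, against 3.99% of the 9956 tested genes with a window and 2.37% of all 27457 genes in the table. In Mcm2, Mcm5, Mcm6 and Gins1 a pair of sites on opposite strands shared its central 4 bases. Such a pair was found in 5 of the 27457 genes. The fifth, named after the search, was Topbp1, a factor of helicase activation that is no member of the list and was lower in O4+ cells (-1.12 ± 0.23, adjusted p = 0.0040). The stretches that follow lie wholly upstream of the start, run 5′ to 3′ on the gene's strand, and have the E2F letters in capitals. The first 4 stretches hold the pair, and those of Pola1, Tyms and Uhrf1 hold 1 site each. Outside the stretches shown, Uhrf1 has a further upstream site at -193 and Mcm5 has a further one at -8.
Mcm2, chr4:122918095-122918138, minus strand: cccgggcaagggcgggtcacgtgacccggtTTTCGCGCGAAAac
Mcm5, chr19:13488570-13488641, plus strand: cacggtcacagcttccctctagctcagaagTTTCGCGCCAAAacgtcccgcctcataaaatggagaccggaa
Mcm6, chr13:42404450-42404521, minus strand: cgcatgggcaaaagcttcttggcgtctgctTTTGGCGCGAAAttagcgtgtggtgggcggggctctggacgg
Gins1, chr3:160184865-160184919, plus strand: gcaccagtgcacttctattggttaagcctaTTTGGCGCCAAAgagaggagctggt
Pola1, chrX:62342490-62342557, minus strand: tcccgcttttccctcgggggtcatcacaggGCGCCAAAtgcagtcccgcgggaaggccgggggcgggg
Tyms, chr9:120776084-120776150, minus strand: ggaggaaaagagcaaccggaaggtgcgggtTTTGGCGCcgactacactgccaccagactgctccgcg
Uhrf1, chr9:1223057-1223124, plus strand: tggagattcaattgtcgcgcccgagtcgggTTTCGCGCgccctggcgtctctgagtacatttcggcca

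The same windows were searched for CCAAT and for TTTGAA or TTCGAA, the cell cycle homology region (CHR) letters typical of mitosis genes. A CCAAT was found for 51.6% of the 31 replication genes and a CHR for 19.4%, against 38.8% and 14.2% of all tested genes with a window. Of 41 tested mitosis genes with a window, 2.44% held an E2F site, 80.5% a CCAAT and 73.2% a CHR. An E2F site can share its last base with a CCAAT, as in Mcm7, where the site starts at -52 and the CCAAT at -45 from the start. Of the 17 replication genes with an E2F site 16 were lower in O4+ cells, with a median difference of -1.09, and of the 14 without one 10 were lower, with a median of -0.67. No test was made of these shares, and a match is a description of letters, not a bound site.

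**Figure D4:**
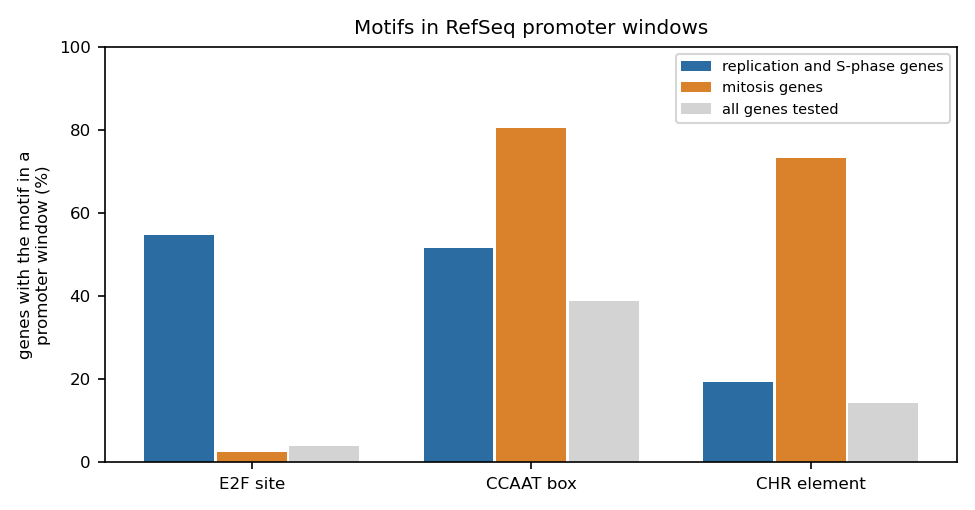
Share of genes, in percent, whose RefSeq promoter window holds an E2F site, a CCAAT box or a CHR element on either strand, for 31 replication and S-phase genes, 41 mitosis genes and 9956 tested genes. E2F letters are in 54.8%, 2.44% and 3.99% and CHR letters in 19.4%, 73.2% and 14.2%.

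Among the enzymes that start and extend strands, the catalytic subunit of polymerase alpha differed most. Pola1 had ratios of 1, 1.44, 1.90, 1.32 and 2.34 in A2B5+ cells and of 0.412, 0.451, 0.403 and 0.513 in O4+ cells, a difference of -1.79 ± 0.23 (adjusted p = 2.2e-04). The O4+ values lay close together and far below the lowest A2B5+ value. Its partner subunit Pola2 fell by 0.69 ± 0.19, without overlap. The primase subunit Prim1 varied most within A2B5+ cells, with ratios of 0.857, 1.59, 2.50, 3.93 and 1.84 against 0.814, 0.677, 0.627 and 1. It fell by 1.31 ± 0.37 (adjusted p = 0.018), with overlap because A2B5+ replicate 1 lay among the O4+ values. The other primase subunit, Prim2, had a difference of -0.39 ± 0.21 (adjusted p = 0.15) and was called with arrays centred (adjusted p = 0.0499). Pole, the leading-strand polymerase, had ratios from 1 to 1.47 in A2B5+ cells and from 0.488 to 0.793 in O4+ cells, and fell by 1.05 ± 0.18. Pold1, the lagging-strand polymerase, had a difference of -0.54 ± 0.22 (adjusted p = 0.067), and with arrays centred it was -0.71 (adjusted p = 0.029). Without O4+ replicate 2, which was at 1.11, Pold1 was also called.

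PCNA, the sliding clamp often used as a marker of dividing cells, differed less. Pcna had ratios of 1.13, 1, 1, 1.03 and 1.13 in A2B5+ cells and of 0.864, 0.776, 0.649 and 0.709 in O4+ cells. No array overlapped, and the spread within A2B5+ cells was the smallest of all members, an SD of 0.09. The difference was -0.51 ± 0.12, 1.42-fold (adjusted p = 0.0073). Of the clamp loader subunits, Rfc3 fell by 0.91 ± 0.21 and Rfc5 by 0.51 ± 0.14. Rfc4 fell by 0.64 ± 0.24 at the edge of the threshold (adjusted p = 0.0496), and this call ended in 10 of 20 alternative settings, among them leaving out any replicate other than A2B5+ 1 or O4+ 2 (adjusted p up to 0.12). Rfc2 had a difference of -0.39 ± 0.24 (adjusted p = 0.21). Without O4+ replicate 2, the array with the highest O4+ ratio of both Rfc2 (1.41) and Rfc4 (1.17), Rfc2 was called at -0.61 (adjusted p = 0.035).

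Single-strand binding and strand joining were uneven. Rpa2, a subunit of the single-strand binding trimer, fell by 0.55 ± 0.18 (adjusted p = 0.028), with O4+ ratios of 0.675, 1.02, 0.593 and 0.635. The smallest subunit, Rpa3, had a difference of -0.20 ± 0.14 (adjusted p = 0.26). Without A2B5+ replicate 2, or without O4+ replicate 1, 3 or 4, Rpa2 was no longer called (adjusted p up to 0.080). Lig1, which seals Okazaki fragments, had ratios of 1, 1.16, 1.21, 1.22 and 1.39 against 0.479, 0.728, 0.540 and 0.520. Its populations did not overlap, and it fell by 1.09 ± 0.15 (adjusted p = 3.7e-04). Fen1, the flap nuclease of the same step, had ratios of 0.878, 1.15, 1.05, 0.949 and 1.13 against 1, 1.06, 0.83 and 0.917. Both populations covered nearly the same range, and the difference was -0.11 ± 0.13 (adjusted p = 0.49).

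In deoxynucleotide supply 4 of 5 genes were lower. Dut, which removes dUTP before it can be built into DNA, had ratios of 1, 1.15, 1.04, 1.01 and 1.18 in A2B5+ cells and of 0.389, 0.334, 0.298 and 0.389 in O4+ cells. Both groups were tight and far apart, and the difference of -1.61 ± 0.12 had the lowest adjusted p of the list, 9.9e-06. The thymidine kinase Tk1 fell by 1.48 ± 0.22 as the mean of 2 probe sets, from ratios between 1.01 and 1.57 to between 0.285 and 0.633. Rrm1, the large subunit of ribonucleotide reductase, fell by 1.10 ± 0.26. Tyms, which makes thymidylate, fell by 0.95 ± 0.35 (adjusted p = 0.046), with an A2B5+ range of 0.901 to 2.89 and an O4+ range of 0.536 to 1.10. This call ended without A2B5+ replicate 2 or 3 or O4+ replicate 1, 3 or 4 (adjusted p up to 0.11). Rrm2, the small reductase subunit made in S phase, had ratios of 0.916, 1.59, 1.05, 0.984 and 1.15 against 1, 0.750, 0.975 and 1.16 on its only probe set with 1 symbol. These overlapped widely, with a difference of -0.22 ± 0.19 (adjusted p = 0.37).

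Among the genes that control S-phase entry, the transcription factor E2f1 had ratios of 1, 1.48, 1.60, 1.77 and 1.22 against 0.432, 0.502, 0.695 and 0.456. All O4+ arrays were below all A2B5+ arrays, with a difference of -1.44 ± 0.20 (adjusted p = 3.9e-04). Cyclin E1 (Ccne1), which drives Cdk2 at the start of S phase, had O4+ ratios of 0.367, 1.06, 0.752 and 0.441, the widest O4+ spread of the list (SD 0.70), and A2B5+ ratios from 0.812 to 1.16. It fell by 0.80 ± 0.29 (adjusted p = 0.045), and the call ended without A2B5+ replicate 2, 3, 4 or 5 or O4+ replicate 1, 3 or 4 (adjusted p up to 0.12). Cyclin E2 (Ccne2) had a difference of -0.20 ± 0.17 (adjusted p = 0.36). Chek1, the kinase that guards stalled forks, had A2B5+ ratios of 1.63, 1.06, 1.57, 1.36 and 1 and O4+ ratios of 0.621, 0.695, 0.613 and 0.625. It fell by 1.03 ± 0.17, but its O4+ values had a residual SD of only 0.026 around the array pattern of low probe sets, whose own median residual SD over all 9 arrays was 0.066 against 0.40 for the other probe sets of array A. The size of its fall is therefore uncertain.

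Uhrf1, which guides DNA methylation onto new strands, had the largest gap after Cdt1. Its ratios were 1.77, 2.45, 1.04, 1 and 1.98 in A2B5+ cells and 0.240, 0.281, 0.335 and 0.400 in O4+ cells, a difference of -2.33 ± 0.29, or 5.02-fold (adjusted p = 1.8e-04). The methyltransferase it recruits, Dnmt1, had a difference of -0.69 ± 0.36 (adjusted p = 0.14). Slbp, which binds histone mRNA, was the one member with a positive difference, 0.58 ± 0.26 on array A (adjusted p = 0.094), with ratios of 0.591, 0.574, 0.760, 1.15 and 1 against 1.06, 1.82, 1.06 and 0.937. Without A2B5+ replicate 4 it was called higher, at 0.72 (adjusted p = 0.048).

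Some members were measured by further probe sets, and Slbp split between them. On array B, 1 Slbp probe set fell by 2.11 ± 0.36 (adjusted p = 0.0031), from ratios between 1 and 3.28 to between 0.352 and 0.536, and another had a difference of -0.07 ± 0.13 (adjusted p = 0.70). The O4+ values of the latter had a residual SD of 0.098 around the array pattern of low probe sets. Over all arrays of type B the median residual SD was 0.06 for low probe sets and 0.35 for the others. The lack of a difference on that Slbp probe set is therefore uncertain. The probe set that fell is of a type whose probes can match several transcripts, as is the array B probe set of Lig1. Averaged over both array types, Slbp had a difference of -0.53 (adjusted p = 0.019), opposite to its array A value. The array B probe sets of Tk1, Lig1 and Dut had differences of -0.84 ± 0.18, -0.72 ± 0.20 and -0.60 ± 0.16, the last well short of the -1.61 of array A. Ccne2 had 0.27 ± 0.20 on array B (adjusted p = 0.35), and the 2 probe sets of Rfc5 had -0.76 ± 0.18 and -0.27 ± 0.18. In all, on array A 23 of 30 tested probe sets of members were lower, and 12 of 17 on the other array type, where 14.7% and 13.8% of all tested probe sets were lower. Of these probe sets 0 were higher, where 32.5% and 9.93% of all tested probe sets were.

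Of 32 tested other genes of the fork and the origins, 17 (53.1%) were lower and 4 (12.5%) higher, with a median of -0.53, where 17.8% and 28.8% of all genes were lower and higher. With arrays centred, 17 were lower and 1 higher. No list was tested against another or against the replication genes. The largest falls were those of the fork protein Wdhd1 (-2.22 ± 0.19), the clamp loader partner Dscc1 (-2.17 ± 0.26) and topoisomerase Top2a (-2.07 ± 0.22). Orc5, an origin recognition subunit, was higher by 0.93 ± 0.17, with O4+ ratios from 1.23 to 2.22 and A2B5+ ratios from 0.798 to 0.968. The small rises of Pold2 (0.44 ± 0.16) and Rnaseh2a (0.36 ± 0.13) were not called with arrays centred (adjusted p = 0.21 and 0.24). Of 12 chromatin assembly and methylation genes 6 were lower and 0 higher (median -0.59), led by Atad2 (-1.87 ± 0.19), the histone chaperone Asf1b (-1.75 ± 0.32) and the helicase Hells (-1.56 ± 0.24).

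Of 14 tested E2F, Rb and DREAM genes, which regulate transcription for S phase and mitosis, 6 (42.9%) were lower and 2 (14.3%) higher (median -0.23), against 17.8% and 28.8% of all genes. With arrays centred, 6 were lower and 1 higher. Lower were the Rb relative Rbl1 (-2.10 ± 0.19), Foxm1, a factor of mitotic genes (-1.99 ± 0.21), and the repressor E2f8 (-1.85 ± 0.22). The E2F partner Tfdp2 rose by 1.32 ± 0.19. Rb1 rose by 0.68 ± 0.22, which was not called with arrays centred (adjusted p = 0.10). Of 12 G1 cyclins, kinases and inhibitors 7 (58.3%) were lower and 2 (16.7%) higher (median -0.61). Lower were Ccnd2 (-2.40 ± 0.40) and Ccnd1 (-1.36 ± 0.20), which start G1 progression, and the Cdk4 and Cdk6 inhibitor Cdkn2c (-1.51 ± 0.13). The Cdk inhibitor Cdkn1c rose by 2.53 ± 0.25 and Ccng1 by 1.13 ± 0.19.

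A list of counterparts used outside nuclear S phase held mainly ligases, polymerases and nucleotide enzymes of repair and mitochondria, and also Cdk inhibitors. Of its 21 tested genes 3 (14.3%) were lower and 7 (33.3%) higher, with a median of 0.26, shares near the 17.8% and 28.8% of all genes. With arrays centred, 4 were lower and 5 higher. Lig3, a ligase of repair and of mitochondria, had ratios of 0.666, 0.689, 0.961, 0.891 and 0.701 in A2B5+ cells and of 2.45, 2.92, 2.54 and 2.46 in O4+ cells. Every O4+ array was above every A2B5+ array, and the difference was 1.74 ± 0.15, where Lig1 had -1.09 ± 0.15 on the same arrays. Lig4, the ligase of end joining, rose by 1.48 ± 0.24, and Cdkn1c is in this list as well. The mitochondrial thymidine kinase Tk2, on array B, rose by 0.95 ± 0.13, where Tk1 had -1.48 ± 0.22 on array A. The O4+ values of Tk2 had a residual SD of 0.061 around the array pattern of low probe sets, which have a median of 0.060 on array B. Unlike those of Chek1 they were the higher group, with ratios from 1.61 to 1.76 against 0.741 to 1 in A2B5+ cells. What the low residual SD means for the size of the rise of Tk2 was not tested. Rrm2b had no tested probe set. The counterparts that fell were Cdkn1a (-0.80 ± 0.24), Cdkn1b (-0.53 ± 0.17) and the dNTP hydrolase Samhd1 (-0.40 ± 0.14). Cdkn1a and Cdkn1b are Cdk inhibitors that are also counted among the 7 lower genes of the G1 list. Of 22 other nucleotide supply genes 5 (22.7%) were lower and 9 (40.9%) higher, with a median of 0.18, against 17.8% and 28.8% of all genes. With arrays centred, 5 were lower and 6 higher, against 20.4% and 18.7%. The deoxycytidylate deaminase Dctd, the nucleoside transporter Slc29a1 and Shmt1 had differences of -2.15 ± 0.21, -2.09 ± 0.34 and -1.12 ± 0.24. The CTP synthase Ctps1, the uridine-cytidine kinase Uck2 and Adsl of purine synthesis rose by 0.99 ± 0.11, 0.78 ± 0.21 and 0.76 ± 0.17.

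Beside the replication genes, 43 of 46 tested mitosis genes (93.5%) were lower and 0 higher, with a median of -1.95, against 17.8% and 28.8% of all genes. With arrays centred, 44 were lower and 0 higher, against 20.4% and 18.7%. The largest falls there were Aspm (-3.67 ± 0.20), Bub1 (-3.10 ± 0.14) and Bub1b (-3.04 ± 0.23), and Cdk1 and Mki67 had -2.40 ± 0.17 and -2.27 ± 0.24. Both medians come from the same arrays, and whether the lists differ was not tested.

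**Figure D5:**
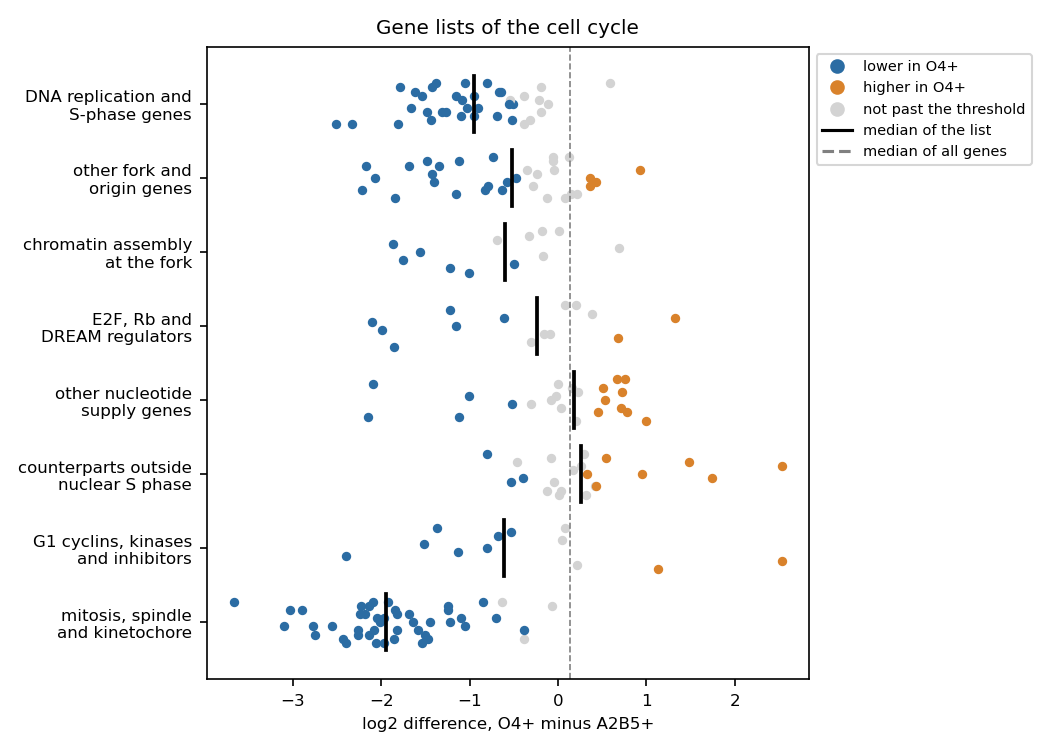
Log2 difference, O4+ minus A2B5+, for each tested gene of 8 cell cycle and DNA synthesis lists; vertical spread within a list only separates points. Black bars are list medians, from -1.95 for mitosis to 0.26 for the counterparts outside nuclear S phase, and the dashed line is the median of all genes, 0.14.

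Markers of other cells moved with the populations. For all tested genes the shares were 17.8% lower and 28.8% higher in O4+ cells. Of 12 tested markers of myelinating oligodendrocytes 12 were higher in O4+ cells, led by Ermn (6.46 ± 0.20). Of 7 progenitor markers 4 were lower and 3 higher, with Pdgfra at -2.29 ± 0.61 and Sox10 at 4.68 ± 0.61. Lower in O4+ cells were 7 of 11 astrocyte and radial glia markers, led by Nes (-2.36 ± 0.25), 11 of 12 microglia markers (P2ry12, -2.12 ± 0.43), 8 of 11 endothelial and mural markers (Sox18, -3.85 ± 0.46) and 5 of 6 ependymal and choroid markers (Ccno, -3.60 ± 0.72), with 0 higher in these 4 lists. Every O4+ array lay below every A2B5+ array for 6 astrocyte, 2 microglia, 8 endothelial and 2 ependymal markers, where 13.5% of all genes showed this. For 1 astrocyte marker every O4+ array lay above. Of 12 neuron and neuroblast markers 7 were lower, led by Gad1 (-4.08 ± 0.74), and 2 higher, led by Elavl3 (1.36 ± 0.24). List means on centred array A ran from 0.04 to 0.82 in A2B5+ and from -0.99 to -0.44 in O4+ arrays for astrocyte markers, from 0.08 to 0.88 and from -1.51 to -0.07 for microglia, from 0.09 to 0.62 and from -2.02 to -0.86 for endothelial cells, and from -0.29 to 1.75 and from -1.03 to -0.69 for neurons. For progenitor markers they ran from -1 to 0.894 in A2B5+ and from -0.115 to 0.295 in O4+ arrays. Ratios hold no zero, so no marker could be read as absent. The part of these cells in the replication result was not tested.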

How the data were processed

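RNA of 18 samples was measured, 9 on each of 2 Affymetrix array types. The authors deposited linear ratios. GCRMA appears in the submitters' processing notes with no version, and the step from it to ratios is not stated there. Over the 9 arrays of a type, 12995 of 15923 probe sets (array A) and 11050 of 15333 (array B) had a median ratio of exactly 1, the rest one below 1. Log2 ratios were used without further normalization. Probe sets that reached 1 on 4 or more of the 9 arrays were tested (13098 and 11136); 57 control probe sets per type were left out.

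Genes were named from probe sets with 1 symbol (12789 and 7570; 312 and 100 had several, 2822 and 7663 none), and 12754 and 7530 of these matched the reference gene table. A gene's value was the mean over its tested probe sets, array A before array B. O4+ and A2B5+ were compared with limma 3.58.1 in R 4.3.3 (lmFit, eBayes, two-sided, Benjamini-Hochberg over all genes, or over all probe sets of a type). The fit was also run on simulated data with independent noise. These held no shift shared by the genes of an array, so they cannot show how such shifts act on the calls. Tested probe sets of O4+ arrays lay above A2B5+ arrays by 0.17 (array A) and 0.00235 (array B) in the median; all genes gave 2127 lower and 3445 higher, and 2447 and 2241 with arrays centred.

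The members and lists were chosen with earlier results of these data known. Named were all tested members, the 3 called genes with the largest falls and the 3 with the largest rises of each other list, the called gene with the largest difference in each direction of each marker list, and Rrm2b, Tk2, Lig3, Dnmt1, Top2a, Mki67 and Cdk1. Alternatives were the filter, centring, an offset of 0.1, a variance trend, array weights, a replicate block, other summaries of probe sets and each replicate left out. Per the series' design text each replicate is a litter of its own; nothing says that equal A2B5+ and O4+ numbers mark a shared litter. Replicate number limits precision. Sequences of proteins were not used here, and 1 gene that the rule names is not reported here.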

Additional observations from a re-analysis of the deposited data

Results flagged for a closer look

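Within a population, 1 array lay far from the others for 4 of the members, out of 74 groups of arrays examined for members, where chance gives about 1 in 20. In O4+ cells these were Orc1 in replicate 2 of array B (ratio 0.851, others 0.991 to 1.02), Pola2 in replicate 4 of array A (0.595, others 0.883 to 0.932), Rfc5 in replicate 3 of array B (0.686, others 0.883 to 0.906) and Chek1 in replicate 2 of array A (0.695, others 0.613 to 0.625). Among the other named genes the same held in A2B5+ cells for Wdhd1 in replicate 3 (1.52, others 1 to 1.13), Hells in replicate 2 (2.16, others 1 to 1.23), Cdkn1c in replicate 1 (1, others 0.470 to 0.551) and Mki67 in replicate 1 (1, others 1.67 to 2.03). In O4+ cells it held for Atad2 in replicate 3 (0.277, others 0.384 to 0.398), Asf1b in replicate 2 (0.793, others 0.340 to 0.378) and Elavl3 in replicate 4 (1.41, others 1.94 to 2.04). In all 11 of 166 groups were so marked. Asf1b and Chek1 were high on the O4+ array that was also highest for most members. The mark of Rfc5 rests on the mean of 2 probe sets, with O4+ replicate 4 at 0.627 on the first and 1.295 on the second. On these probe sets replicate 3 was at 0.681 and 0.691, so it was not the lowest on the first.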

How the results depend on the processing

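Over 20 settings beside the reported one, 23 of the 28 members called lower kept their call in each; the other 5 were Mcm7, Rfc4, Rpa2, Tyms and Ccne1. Leaving out each replicate in turn gave 23 to 30 members lower, 0 to 1 higher, 20 to 29 without overlap and a median of -1.07 to -0.88. Replicates were left out by title number on both array types. Since O4+ numbers do not match across the types, each such O4+ step left out different samples on array A and array B. Centring gave 30 lower and a median of -1.12. With the replicate number as a block 28 were lower, 0 higher, and the median was -0.88; same-numbered arrays deviated together with r of 0.02 to 0.31 on array A and -0.20 to 0.24 on array B, and 2 and 1 of 4 O4+ arrays correlated best with their own number, so the numbers were not taken to pair samples. Averaging over both array types turned the sign of Slbp to -0.53 and of Ccne2 to 0.035, also with O4+ arrays matched on shared probe sets (adjusted p = 0.027 and 0.82), since their array B probe sets differ from that of array A. That matching, and leaving out O4+ replicate 2 with its match, were chosen after seeing the data. Ratios carry no level above background, so signal limits cannot be set for a gene.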

Other observations

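On the 100 probe sets shared by both array types, each A2B5+ array of array A agreed best with the array B column of the same number (r from 0.78 to 0.89). The O4+ arrays did not. Replicates 1, 2, 3 and 4 of array A agreed best with replicates 3, 4, 1 and 2 of array B (r = 0.84, 0.94, 0.80 and 0.89), while same-numbered columns gave r of 0.041, -0.80, -0.041 and -0.79. The array B column matched to O4+ replicate 2 was also the highest O4+ array for 4 of the 8 members measured there, and its mean over 13 members on centred arrays was -0.44, against -0.68 to -0.80 in the other O4+ arrays of that type.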
